A study of Mus musculus with 12 samples.

Results

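The mitochondrial ribosome is built from proteins that are encoded in the nucleus, and the genes analysed here are those whose symbol begins with *Mrpl* or *Mrps* followed by a number. This rule found 77 genes among the 22911 genes of each table, 48 *Mrpl* genes named for the large subunit and 29 *Mrps* genes named for the small subunit. Their RNA was measured by RNA-Seq in mouse epiblast-like cells (EpiLCs), a primed state that embryonic stem cells (ESCs) reached here over 48 h with FGF2 and Activin A. The 12 libraries fall into 4 groups of 3, each from 3 ESC lines of a genotype: female *Kdm5c* fl/fl (control females), female *Kdm5c* Δ/Δ (mutant females), male *Kdm5c* flY (control males) and male *Kdm5c* ΔY (mutant males). *Kdm5c*, called *Smcx* in the labels, encodes a demethylase of histone H3 lysine 4. Controls carried floxed alleles rather than untouched ones, and the Δ allele lacks the exons of the catalytic JmjC domain. The labels give the strain as C57BL/6J, whereas the study's methods describe the floxed strain as made on a mixed background. With 3 lines a group, p-values measure the spread between these lines.

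Mitochondrial ribosomes translate the few messenger RNAs of the mitochondrial genome, all of which encode subunits of the respiratory chain and ATP synthase. Every protein of these ribosomes is made in the cytosol and imported, and must meet ribosomal RNA that is transcribed inside the organelle. Pluripotent cells carry few and simple mitochondria, and the change from the naive to the primed state is known for a shift in the use of oxidative metabolism.

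The values are normalised counts, in which size factors put the reads of all libraries on a common scale. The deposited columns are means over the 3 libraries of a group, from which the whole reads of each library were recovered (5516216 to 11092731 per library). Within a group the libraries are named A, B and C in order of falling size factor, and which ESC line each came from could not be worked out. The Δ allele removes a part of the transcript, so that the count of *Kdm5c* checks the labels only in part. *Kdm5c* itself lay at 2315 to 2429 in control females, 1406 to 1505 in mutant females, 2110 to 2371 in control males and 1897 to 1976 in mutant males. Control male library B and mutant male library A stood apart: over all genes their chi-square against the other libraries of their group was 17.1 to 31.6 times its degrees of freedom, whereas every other pair lay between 1.98 and 4.48. Male and interaction values are given with all libraries, and for most of the named genes also without these libraries. The male controls that then remain, A and C, held reads on 20773 and 20368 genes, against 17229 in library B. The 8 EpiLC markers, among them *Pou5f1*, *Otx2*, *Dnmt3b* and *Fgf5*, had reads in every group, and their counts summed to 16193 to 16852 in control females, 20848 to 21269 in mutant females, 17015 to 24990 in control males and 12266 to 17826 in mutant males. Single markers did not all follow these sums. In mutant females *Dnmt3b*, *Sox2*, *Utf1* and *Otx2* had higher means than in controls, and *Fgf5*, *Pou3f1* and *Pou5f1* lower means. In mutant males *Sox2* alone had a higher mean.

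All 77 genes were read in every library, with at least 40 and at most 3193 reads. No gene of the set lies on the X chromosome, and in the mm9 gene models they are spread over 17 chromosomes. Of the 77 gene models, 26 share exonic bases with another model. For 35 genes at least 1 position of the longest coding transcript has an exact 50-base copy elsewhere in mm9, from which a uniquely mapped read cannot come. The share of copied positions was 85.9% for *Mrps36*, 76.4% for *Mrpl23*, 58.8% for *Mrps18b* and 52.3% for *Mrpl27*, so their counts rest on the remaining positions, and a read of a near copy with a mismatch cannot be told apart from theirs.

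Promoter letters, which the selection by name did not use, were compared with those of other genes. RefSeq promoter windows (GRCm38.p6, 250 bases before to 50 after the start) were matched for 68 members and were searched on both strands for 5 motifs, none of which contains another. CGCATGCG, the core of the site of NRF1, a factor known for driving nuclear genes of mitochondrial proteins, was in 7 of the 68 windows (10.3%), against 1.91% of all 27025 windows and 4.81% of the 6566 windows of genes expressed in the range of the members. CCGGAAG, a motif of ETS factors such as GABPA, was in 24 windows (35.3%), against 9.12% of all windows and 20.7% of those in the range. AAGATGGC, a motif of YY1, was in 12 windows (17.6%), against 2.88% and 5.45%. The E-box CACGTG (7.35%, against 7.24% of all windows and 10.6% in the range) and CCAAT (39.7%, against 37.9% and 39.5%) were about as frequent as elsewhere. Most members lacked each of these motifs, and no test of these differences in share was made. A match is a description of letters and not of binding. The coordinates given with the sequences are those of exact matches of the RefSeq windows to mm9.

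The NRF1 core is shown for 5 of the 7 members that hold it, as 30 bases in the direction of the gene with the match in capitals. *Mrpl32* holds it in 2 places, and 3 of the 6 matches shown begin within 30 bases before the start. The matches not shown, in *Mrpl10* and *Mrpl39*, begin 135 and 124 bases before the start.
*Mrpl9*, mm9 chr3:94247220-94247249, + strand: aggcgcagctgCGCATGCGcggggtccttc
*Mrpl17*, mm9 chr7:112959593-112959622, - strand: ccgagttactgCGCATGCGtcctctgagac
*Mrpl22*, mm9 chr11:57985123-57985152, + strand: gcctcggactgCGCATGCGtatagtcagcc
*Mrpl32*, mm9 chr13:14705372-14705401, - strand: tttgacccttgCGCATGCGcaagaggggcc
*Mrpl32*, mm9 chr13:14705309-14705338, - strand: ggcggacttaaCGCATGCGctcagcccgcg
*Mrps18b*, mm9 chr17:36053591-36053620, - strand: aaacggcccgaCGCATGCGcactgggagca

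The YY1 letters are shown for 6 of the 12 members that hold them, again as 30 bases with the match in capitals. In *Mrpl35*, *Mrps18a* and *Mrps24* the ATG inside the match is the annotated start codon, and in *Mrps11* the match is on the other strand.
*Mrpl35*, mm9 chr6:71773737-71773766, - strand: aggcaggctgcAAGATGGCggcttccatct
*Mrpl37*, mm9 chr4:106739427-106739456, - strand: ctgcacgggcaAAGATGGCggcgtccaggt
*Mrpl42*, mm9 chr10:94964538-94964567, - strand: cagattgaagcAAGATGGCgagcgcgcggt
*Mrps18a*, mm9 chr17:46247953-46247982, + strand: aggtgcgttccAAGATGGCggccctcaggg
*Mrps24*, mm9 chr11:5607655-5607684, - strand: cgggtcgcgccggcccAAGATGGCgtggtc
*Mrps11*, mm9 chr7:85927899-85927928, + strand: ctacgggcgccGCCATCTTtctgtcttccc

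The ETS letters are shown for 6 of the described members in the same form. *Mrpl43* holds a pair of them, and the match of *Mrpl33* reaches over its start.
*Mrpl27*, mm9 chr11:94515039-94515068, + strand: gtccgcaagacCCGGAAGtagatctatccc
*Mrpl33*, mm9 chr5:31916310-31916339, + strand: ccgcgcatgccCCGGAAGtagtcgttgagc
*Mrpl43*, mm9 chr19:45080970-45080999, - strand: tcgcggtgactCCGGAAGcaaaactctcca
*Mrpl43*, mm9 chr19:45080926-45080955, - strand: caaccccggaaCCGGAAGtcaccggttagt
*Mrpl51*, mm9 chr6:125142117-125142146, + strand: caggggctaaaCCGGAAGtatttgactgga
*Mrpl57*, mm9 chr14:58445069-58445098, + strand: ccccagagagaCCGGAAGcagcgcgccgcc
*Mrps18a*, mm9 chr17:46247916-46247945, + strand: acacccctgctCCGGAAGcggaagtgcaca

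Levels differed widely among these genes, although most of their proteins are present in equal number in a finished ribosome. Per kilobase of the longest coding transcript, and as the mean of the 4 groups, the median was 362 normalised counts for *Mrpl* genes and 322 for *Mrps* genes. *Mrpl43* was highest (2257 per kilobase), followed by *Mrpl52* (1798) and *Mrpl42* (1612), and among *Mrps* genes *Mrps24* (939), *Mrps33* (700) and *Mrps18a* (613) were highest. *Mrps26* (51.2), *Mrpl35* (73.7), *Mrpl48* (75.7), *Mrpl47* (75.8), *Mrps11* (109) and *Mrps25* (118) were lowest in their subunits. All of these but *Mrps11* have long model transcripts, of 3364 to 6073 bases against a median of 1122 for the members. Their low place therefore rests on the length used and need not mean few transcripts. The order at the top was not fixed. *Mrpl43* stood at 3691 per kilobase in mutant females but at 1125 in mutant males, below *Mrpl52* (1687) and *Mrpl42* (1324) of the same libraries. At the bottom, *Mrpl48* lay above *Mrpl47* in mutant females (96.2 against 85.0 per kilobase) and below it in control males (66.6 against 88.0), so these neighbours are not ordered. A length taken over all exons in place of the longest transcript puts *Mrpl43* (1403) below *Mrpl52* and *Mrpl42*.

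Summed over the genes of a subunit, the mutant females carried more of this RNA than the control females. The 48 *Mrpl* genes summed to 25131, 25375 and 25725 normalised counts in control female libraries A, B and C and to 31331, 31778 and 31796 in the mutant female libraries. The sum was 24.5% higher in the mutants and the groups did not overlap. The 29 *Mrps* genes summed to 13825, 13775 and 14367 in control females and to 15147, 15351 and 15296 in mutant females, a sum 9.12% higher. Scaled by total recovered reads instead, the rises were smaller. On that scale the *Mrps* sums were 1690, 1671 and 1755 in control and 1779, 1779 and 1763 in mutant females. The highest control, C, thus lay just below the lowest mutant, also C. The *Mrpl* sums were 3072, 3078 and 3142 in control and 3680, 3683 and 3665 in mutant females, without overlap. *Mrpl43* and *Mrpl15* alone made up 14.2% and 11.4% of the summed difference in normalised counts over both subunits. Per kilobase, the *Mrpl* sum was 2.14 ± 0.0048 times the *Mrps* sum in control females and 2.38 ± 0.014 times in mutant females (SD, n = 3 each), and without *Mrpl43* these ratios were 1.92 ± 0.0075 and 2.08 ± 0.028.

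In males the sums gave no such separation. The *Mrpl* genes summed to 22509, 29100 and 22009 in control male libraries A, B and C and to 23458, 22201 and 21822 in the mutant male libraries. Control library B lay far above all others, and the remaining libraries of both groups overlapped. The *Mrps* genes summed to 11964, 14818 and 12078 in control males and to 12017, 12355 and 11975 in mutant males, again with control library B alone at the top.

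**Figure D1:**
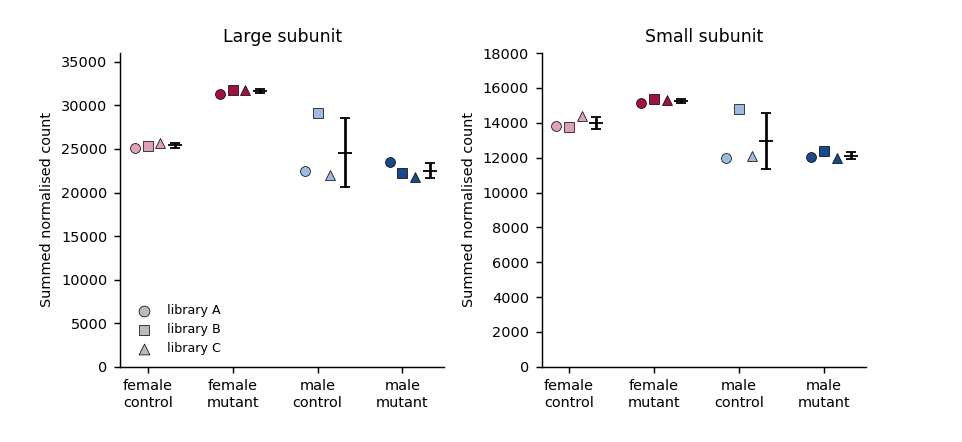
Summed normalised counts of the 48 *Mrpl* genes (left) and the 29 *Mrps* genes (right) in each of the 12 libraries, with the mean and SD of the 3 libraries of a group beside them. Mutant females lie above control females without overlap, and control male library B lies above the other male libraries.

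Markers of cell state moved with genotype beside these genes. The summed counts of 8 naive ESC markers were 965 to 998 in control females, 3033 to 3193 in mutant females, 1446 to 2588 in control males and 4120 to 7365 in mutant males. Those of 8 markers of primitive and visceral endoderm were 2519 to 2815, 11743 to 12501, 9123 to 10137 and 3705 to 8907 in the same order. Those of 8 feeder fibroblast markers were 2262 to 2305, 751 to 814, 562 to 826 and 4176 to 4671. *Col1a1* and *Col1a2* together made up most of the mean feeder sum in every group, and not all markers followed it. *Thy1*, *Lum* and *Dcn* had lower means in mutant than in control males, and *Lum* had a higher mean in mutant than in control females. No marker of these 3 lists was at 0 in any group. In every group *Sparc* made up most of the mean endoderm sum. All 8 endoderm markers had higher means in mutant than in control females. In mutant males *Dab2*, *Afp*, *Ttr* and *Foxa2* had higher means than in control males, and *Gata4*, *Gata6*, *Sox17* and *Sparc* lower means. The 4 mesendoderm markers summed to 271 to 304, 236 to 251, 197 to 215 and 127 to 288 in the same order of groups. The 4 neural markers summed to 2293 to 2520, 1726 to 1777, 1161 to 1335 and 900.1 to 2120, with *Neurog2* at 0 in control females. In mutant females *T*, *Sox1*, *Pax6* and *Nes* had lower means than in controls, and *Mixl1*, *Eomes*, *Gsc* and *Neurog2* higher means. In mutant males only *T* and *Neurog2* of these markers had lower means than in controls. The part of the markers in the differences of the ribosomal genes was not tested. In bulk RNA a change in the share of a cell type and a change of RNA per cell cannot be told apart.

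The first comparison asked which of these genes differ between mutant and control females. By limma, 42 of the 77 genes were higher in mutant females and 9 were lower at an adjusted p under 0.05, and the median difference was a log2 fold change of 0.20. The background was large, because 25.4% of all 19583 genes tested were higher and 24.6% were lower, and among the 8671 genes with a mean in the range of the members 35.4% were higher and 32.6% lower. The members were thus called higher more often (54.5%) and lower less often (11.7%) than genes of like expression, whose median log2 fold change was 0.02. No test of that difference was made. Both subunits took part: 27 of 48 *Mrpl* genes were higher and 5 lower, with a median of 0.22, and 15 of 29 *Mrps* genes were higher and 4 lower, with a median of 0.20. The libraries did not overlap for 41 genes that were higher and 9 that were lower, against 27.6% and 27.2% of all genes tested.

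Scaling by total recovered reads put the median of all genes with a mean of at least 10 at -0.07 and left 41 members called. Without each of the 6 libraries in turn, 40 to 48 members were called. Over the 77 members Spearman's rho between the female log2 fold change and transcript length was 0.02, and the 60 genes with under 10% copied positions had a median of 0.21, against 0.17 for the other 17.

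**Figure D2:**
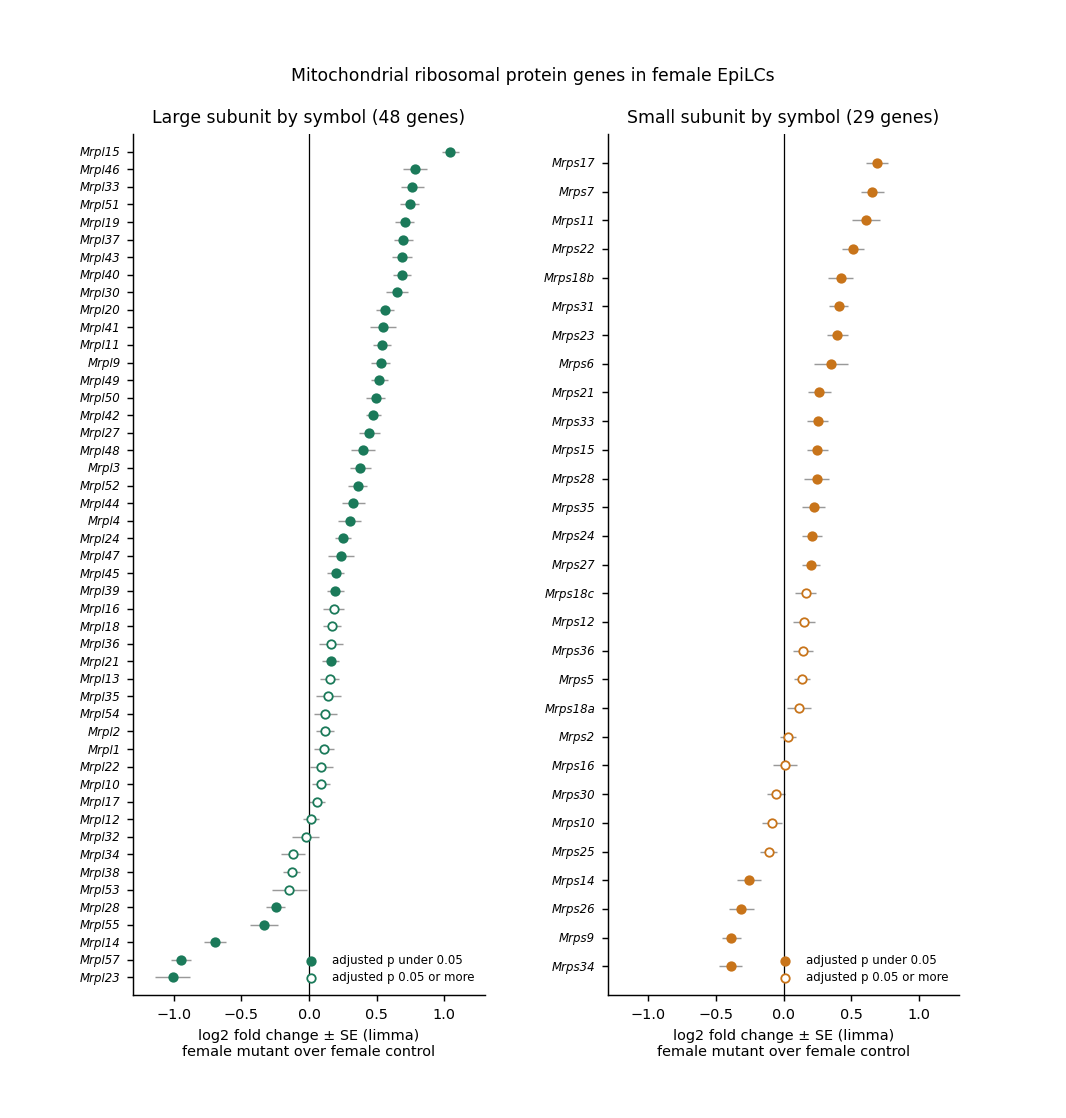
Log2 fold change (mutant over control females, limma, ± SE) of each *Mrpl* gene (left) and each *Mrps* gene (right), in order of size. Filled points passed an adjusted p of 0.05: 42 genes to the right of 0 and 9 to the left, with *Mrpl15* and *Mrpl23* at the ends.

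*Mrpl15*, the counterpart of bacterial L15 at mm9 chr1:4763287-4775820 on the - strand, rose most. It lay at 817, 740 and 869 in control females and at 1626, 1722 and 1647 in mutant females. Every mutant library lay far above every control, and the log2 fold change was 1.04 ± 0.06 (SE, limma, n = 3 each, adjusted p = 2.06e-10).

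The next rises were in other large subunit genes. *Mrpl46*, a protein without a bacterial counterpart, went from 217, 217 and 200 to 360, 406 and 331 (log2 fold change 0.78 ± 0.09, limma adjusted p = 5.36e-07). *Mrpl33*, the counterpart of bacterial L33, went from 170, 192 and 165 to 303, 287 and 305 (0.77 ± 0.09, limma adjusted p = 8.09e-07). Neither gene's groups overlapped. *Mrpl51*, another protein specific to mitochondria, went from 509, 494 and 528 to 760, 886 and 928 (0.74 ± 0.07). *Mrpl19*, the counterpart of bacterial L19, rose by 0.71 ± 0.07 and *Mrpl37* by 0.70 ± 0.07, with limma adjusted p-values of 1.38e-07 and 1.78e-07. *Mrpl43*, the gene with the highest count of the set, went from 1669, 1692 and 1793 to 2476, 2688 and 3184. Its mutant libraries differed among themselves by more than its control libraries, yet the lowest mutant lay above the highest control (0.69 ± 0.07, limma adjusted p = 3.4e-07).

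*Mrpl46* shares its start region with *Mrps11*, the counterpart of bacterial S11: the pair lie head to head on chr7, at 85920122 to 85928417 on the - strand and 85928005 to 85937875 on the + strand, and 173 exonic bases overlap. *Mrps11* rose as well, from 110, 112 and 110 to 178, 158 and 173 (0.61 ± 0.10, limma adjusted p = 7.99e-05). Whether the counting used the strand is not given in the sources used here, so reads in the shared bases may have been counted for either gene or for none. Among the small subunit genes *Mrps17* (0.69 ± 0.08) and *Mrps7* (0.66 ± 0.09), a protein of the head of the subunit, rose by about as much.

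The falls were fewer and as steep. *Mrpl23*, the counterpart of bacterial L23 at the rim of the exit tunnel, lay at 322, 391 and 308 in control females and at 154, 142 and 216 in mutant females. Every mutant library was below every control (log2 fold change -1.01 ± 0.13, limma adjusted p = 3.12e-06). *Mrpl57*, a small protein specific to mitochondria, fell from 529, 494 and 575 to 277, 280 and 267 (-0.95 ± 0.07, limma adjusted p = 5.88e-09). *Mrpl14*, the counterpart of bacterial L14 on the face that meets the small subunit, fell from 281, 296 and 299 to 184, 185 and 171 (-0.70 ± 0.08, limma adjusted p = 1.41e-06). These 3 genes fell while most genes of the same subunit rose or did not pass.

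The bases before the starts of *Mrpl23* and *Mrpl57* are shown because these genes fell most in females. Neither stretch holds any of the 5 motifs, so they carry no capitals. That of *Mrpl57* runs up to the first exon of its model, and the ETS match shown above lies just after it, whereas that of *Mrpl23* lies within its gene model, which starts further upstream.
*Mrpl23*, mm9 chr7:149718736-149718916, + strand: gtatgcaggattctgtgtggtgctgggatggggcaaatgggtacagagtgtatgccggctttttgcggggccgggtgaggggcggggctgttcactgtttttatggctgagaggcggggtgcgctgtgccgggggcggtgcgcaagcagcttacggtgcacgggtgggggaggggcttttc
*Mrpl57*, mm9 chr14:58445001-58445075, + strand: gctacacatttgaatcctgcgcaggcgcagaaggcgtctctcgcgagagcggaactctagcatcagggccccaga

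In the small subunit *Mrps34* fell from 368, 439 and 400 to 340, 290 and 289 (-0.39 ± 0.09, limma adjusted p = 0.000831). *Mrps9*, the counterpart of bacterial S9, fell from 465, 504 and 485 to 363, 359 and 389 (-0.39 ± 0.07, limma adjusted p = 0.000124). Neither gene's groups overlapped, and *Mrps34* shares 763 exonic bases with *Nme3* on the same strand and 1309 with *Mapk8ip3* on the other. *Mrpl55* (-0.33 ± 0.10) and *Mrps26* (-0.31 ± 0.09) fell less, and their calls were lost without single libraries: *Mrpl55* without control library B (limma adjusted p = 0.0731) or mutant library A (0.08), and *Mrps26* without control library A (0.0516) or mutant library C (0.0557). *Mrps14* and *Mrpl28* were the remaining genes that fell. The female groups of *Mrps14* overlapped (-0.26 ± 0.09, limma adjusted p = 0.0202), and its call was lost without control library C (0.171).

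**Figure D3:**
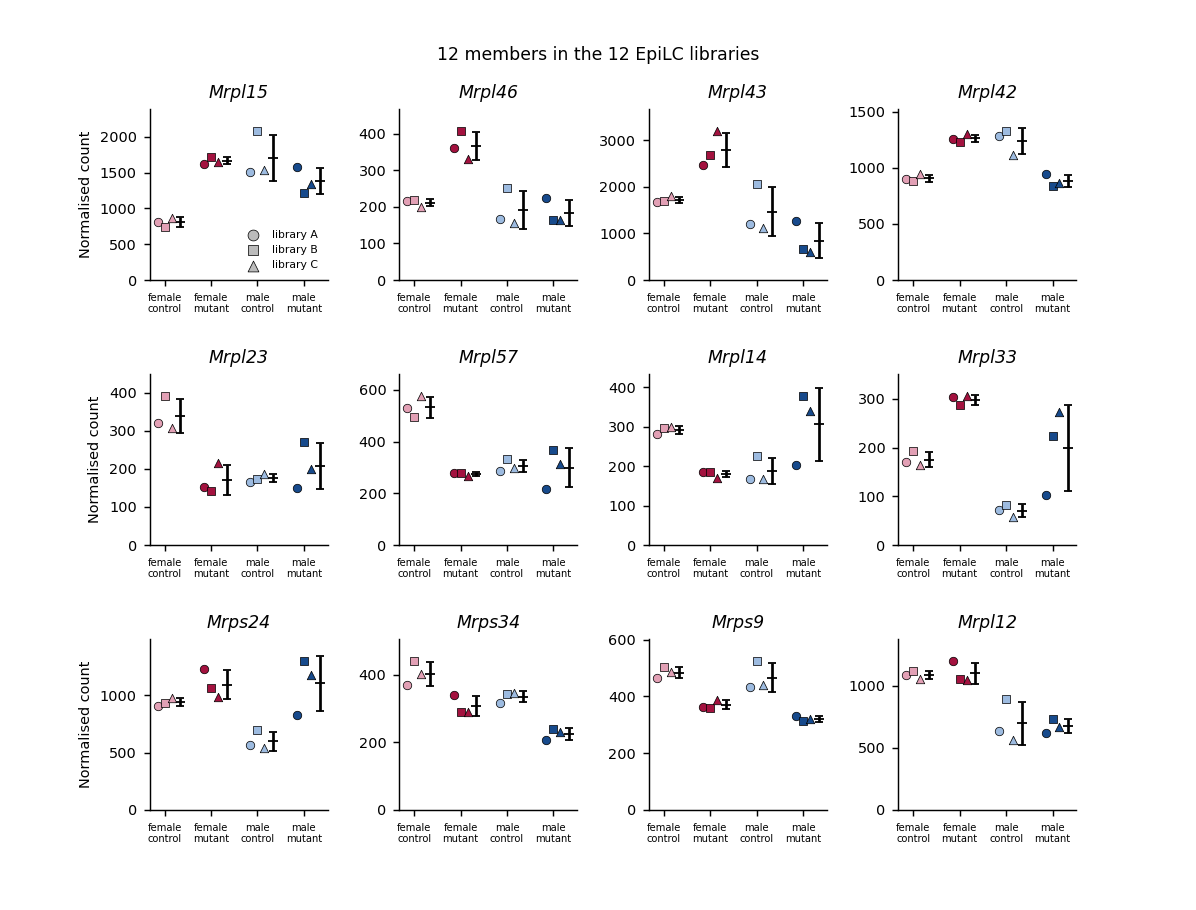
Normalised counts of 12 members in each library (points, with marker shape for library A, B or C) and the mean and SD of each group of 3. *Mrpl15* is low in control females alone, *Mrpl23* and *Mrpl57* are high there, *Mrpl14* is lower in mutant females and control males than in control females, and *Mrps34* and *Mrps9* are lower in the mutants of both sexes.

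Some members have a name that does not match their place or role. *Mrps30* and *Mrps18a* encode proteins that sit in the large subunit, in spite of their symbols. *Mrps30* lay at 665, 687 and 665 in control females and at 665, 695 and 585 in mutant females, and *Mrps18a* at 629, 480 and 563 and at 554, 662 and 586. In both genes the groups overlapped, with log2 fold changes of -0.06 ± 0.07 and 0.11 ± 0.09 (limma adjusted p = 0.552 and 0.317). Counting both genes with the large subunit gave a median of 0.20 in the large and 0.21 in the small subunit. The paralogues of *Mrps18a* occupy other sites of the ribosome: *Mrps18b* rose from 487, 697 and 563 to 759, 737 and 821 (0.42 ± 0.10, limma adjusted p = 0.00113) with 58.8% of its positions copied elsewhere, and *Mrps18c* gave 0.16 ± 0.08 (limma adjusted p = 0.0924). *Mrps36*, now regarded as a part of the oxoglutarate dehydrogenase complex, gave 0.14 ± 0.07 (limma adjusted p = 0.119). *Mrpl12*, a protein of the stalk that also binds the mitochondrial RNA polymerase, lay at 1088, 1117 and 1055 and at 1195, 1055 and 1048, an overlap with a log2 fold change of 0.01 ± 0.06.

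The second comparison asked the same of males, and few members passed. By limma, 2 of the 77 genes were higher and 6 lower in mutant males, against 4.19% higher and 3.58% lower of the 21900 genes tested, and the median log2 fold change was -0.06 (large subunit -0.06, small subunit -0.10). The libraries did not overlap for 4 genes that were higher and 17 that were lower, against 12.6% and 13.9% of all genes. Leaving out a library changed these calls: without control library A or C, or without mutant library B or C, 0 members passed, without control library B 10 passed, and without mutant library A 15 passed. In the 4 limma fits with a count of 0, 12 to 17 members had an unadjusted p under 0.05, and 20 had it with all libraries. With all libraries, limma voom called 4 members after adjustment.

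Without both libraries that stood apart, that is with 2 libraries in each group, 13 members were higher and 15 lower, 8 of them the genes called with all libraries. The controls left, A and C, held reads on more genes than any other library. The background rose as well, to 17.7% of all genes higher and 25.3% lower, and the median of the members was 0.02 in the large and -0.09 in the small subunit.

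*Mrpl33* changed most in males, at 71.8, 82.7 and 57.5 in controls and 102, 223 and 274 in mutants. All mutants were above all controls, but mutant library A lay far below the other mutants. The log2 fold change was 1.39 ± 0.34 (limma adjusted p = 0.0382), and 1.93 ± 0.17 without both libraries that stood apart. *Mrps24*, the counterpart of bacterial S3 at the entry of the messenger RNA channel, lay at 569, 695 and 536 in controls and 832, 1297 and 1181 in mutants. Its groups did not overlap (0.86 ± 0.18, limma adjusted p = 0.0211), and the value was 1.16 ± 0.07 without both of those libraries. On the same strand *Mrpl33* shares 147 exonic bases with *Bre*, and *Mrps24* shares 226 with *Urgcp*.

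The genes that were lower in mutant males were *Mrpl27*, *Mrpl47*, *Mrps34*, *Mrps9*, *Mrpl42* and *Mrpl24*. *Mrpl27*, the counterpart of bacterial L27 near the peptidyl transferase centre, lay at 374, 419 and 395 in controls and 302, 196 and 218 in mutants (-0.75 ± 0.17, limma adjusted p = 0.0321). *Mrps34* lay at 316, 342 and 345 and at 205, 239 and 230 (-0.57 ± 0.13, limma adjusted p = 0.0335), and *Mrps9* at 435, 524 and 440 and at 333, 312 and 320 (-0.53 ± 0.13, limma adjusted p = 0.0379). In none of these genes did the male groups overlap. *Mrpl42* fell by 0.49, *Mrpl24* by 0.46 and *Mrpl47* by 0.58 on the log2 scale, with limma adjusted p-values of 0.0371, 0.0411 and 0.039. *Mrpl24*, *Mrpl47* and *Mrpl27* share 594, 605 and 75 exonic bases with models on the other strand. Without control library B and mutant library A the log2 fold changes were -0.89 for *Mrpl27*, -0.65 for *Mrpl47*, -0.49 for *Mrps34*, -0.47 for *Mrps9*, -0.49 for *Mrpl42* and -0.39 for *Mrpl24*, all of them called.

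All 8 genes called in males were among the 51 called in females, and a shared direction was found in 4 of them, *Mrpl33* and *Mrps24* higher and *Mrps34* and *Mrps9* lower. The other 4 moved in opposite directions. The call of *Mrps24* in females (0.21 ± 0.07, limma adjusted p = 0.0208) was lost without control library A (0.113) or B (0.0565) or mutant library A (0.138), and with total recovered reads (0.128). *Mrpl42*, *Mrpl24*, *Mrpl27* and *Mrpl47* were higher in mutant females and lower in mutant males, and the female call of *Mrpl47* (0.24 ± 0.10, limma adjusted p = 0.049) was lost without any library but mutant A (0.0555 to 0.28), with a pseudocount of 0.1 (0.0624), with total recovered reads (0.154) and with limma voom (0.0771).

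The bases before the start of 3 of the genes that moved in the same direction in both sexes are shown here in the direction of the gene, up to the first exon. Capitals mark CCAAT in *Mrpl33* and *Mrps9*, and the stretch of *Mrps24* holds none of the 5 motifs. Those of *Mrpl33* and *Mrps24* lie within longer gene models that start further upstream.
*Mrpl33*, mm9 chr5:31916074-31916311, + strand: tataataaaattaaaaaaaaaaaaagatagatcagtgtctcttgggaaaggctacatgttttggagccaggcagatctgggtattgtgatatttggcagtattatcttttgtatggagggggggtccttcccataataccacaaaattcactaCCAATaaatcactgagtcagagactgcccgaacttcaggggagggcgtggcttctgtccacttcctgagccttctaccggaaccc
*Mrps24*, mm9 chr11:5607694-5607954, - strand: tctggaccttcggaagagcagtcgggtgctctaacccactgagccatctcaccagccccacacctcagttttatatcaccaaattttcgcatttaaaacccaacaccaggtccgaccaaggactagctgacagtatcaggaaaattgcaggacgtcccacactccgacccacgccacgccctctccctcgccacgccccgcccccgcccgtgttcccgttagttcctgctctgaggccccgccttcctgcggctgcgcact
*Mrps9*, mm9 chr1:42907828-42908077, + strand: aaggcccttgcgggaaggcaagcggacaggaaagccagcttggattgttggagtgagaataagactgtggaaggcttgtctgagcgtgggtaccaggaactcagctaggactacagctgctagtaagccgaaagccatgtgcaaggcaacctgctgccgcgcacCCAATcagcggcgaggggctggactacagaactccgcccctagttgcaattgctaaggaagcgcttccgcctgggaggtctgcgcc

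A pair of the genes that moved in opposite directions is shown in the same way. Capitals in *Mrpl42* mark CCAAT read on the other strand, and *Mrpl24* holds none of the 5 motifs.
*Mrpl42*, mm9 chr10:94964562-94964833, - strand: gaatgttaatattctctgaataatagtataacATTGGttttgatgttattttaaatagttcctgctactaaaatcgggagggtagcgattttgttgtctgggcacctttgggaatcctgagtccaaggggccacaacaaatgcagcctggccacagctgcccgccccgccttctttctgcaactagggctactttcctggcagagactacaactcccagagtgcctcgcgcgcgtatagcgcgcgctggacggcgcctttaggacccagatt
*Mrpl24*, mm9 chr3:87723216-87723427, + strand: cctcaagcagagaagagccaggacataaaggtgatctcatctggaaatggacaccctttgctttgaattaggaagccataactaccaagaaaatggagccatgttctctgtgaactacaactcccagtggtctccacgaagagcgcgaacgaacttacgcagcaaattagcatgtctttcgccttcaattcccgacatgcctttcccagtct

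The third comparison tested whether the genotype difference itself differed between the sexes. By the interaction term of a limma fit over all 12 libraries, the male change was below the female change for 26 of the 77 genes and above it for 5, against 10.7% below and 10.6% above of all 22014 genes tested and 15.1% below and 17.6% above among genes in the range of the members. Of the 26 genes, 18 were *Mrpl* and 8 *Mrps* genes. Without each library in turn, 22 to 40 genes were called. Without control male library B and mutant male library A the counts were 31 and 12, and included all 31 genes called with every library, while the background rose to 27.8% and 17.9%.

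*Mrpl42*, a protein specific to mitochondria, had the smallest p of the set. It lay at 898, 882 and 944 in control and 1259, 1234 and 1299 in mutant females, and at 1282, 1324 and 1112 in control and 944, 835 and 867 in mutant males. The groups separated in each sex and in opposite directions, and the male change was 0.97 ± 0.12 below the female change on the log2 scale (limma adjusted p = 9.32e-05). For *Mrpl15* the male libraries overlapped, at 1509, 2074 and 1538 in controls and 1583, 1217 and 1344 in mutants. Its male change was below the female change by 1.34 ± 0.18 (limma adjusted p = 0.000146). Without control male library B and mutant male library A the interaction was -0.97 ± 0.09 for *Mrpl42* and -1.296 ± 0.10 for *Mrpl15*, and the male difference of *Mrpl15* was then called (-0.25 ± 0.06, limma adjusted p = 0.02128).

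Similar differences were found for *Mrpl27*, *Mrpl11*, *Mrpl24* and *Mrpl40*. *Mrpl11*, the counterpart of bacterial L11 at the base of the stalk, lay at 545, 604 and 583 in control and 787, 843 and 892 in mutant females. In males it lay at 562, 642 and 591 in controls and 529, 381 and 408 in mutants, so the libraries separated in opposite directions (interaction -0.998 ± 0.16, limma adjusted p = 0.000682), although the male difference alone was called only without control library B and mutant library A (-0.46 ± 0.15, limma adjusted p = 0.0939 with all libraries, and -0.55 ± 0.08, limma adjusted p = 0.00197 without these). *Mrpl43* had the lowest interaction value, -1.49 ± 0.35 (limma adjusted p = 0.00828). Its male libraries overlapped, at 1193, 2065 and 1121 in controls and 1269, 664 and 611 in mutants, and the male difference was not called (-0.81 ± 0.30, limma adjusted p = 0.134). Without control library B and mutant library A it was called, at -0.86 ± 0.07 (limma adjusted p = 0.0002444).

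The 5 genes with a higher male than female change were *Mrpl14*, *Mrpl23*, *Mrpl57*, *Mrps14* and *Mrps24*. *Mrpl14* lay at 167, 225 and 168 in control and 202, 377 and 339 in mutant males, an overlap through mutant library A (interaction 1.37 ± 0.27, limma adjusted p = 0.00259), and its male change without control library B and mutant library A was 1.09 ± 0.10. *Mrpl23* lay at 166, 173.7 and 187 and at 150, 271 and 200, and *Mrpl57* at 288, 332 and 299 and at 217, 368 and 312. In both, the male groups overlapped (interaction 1.20 ± 0.28 and 0.88 ± 0.22, limma adjusted p = 0.00749 and 0.00967, and 1.40 ± 0.26 and 1.16 ± 0.12 without control male library B and mutant male library A). The interaction calls of *Mrps24* (limma adjusted p = 0.0413), *Mrps18b* (0.0433), *Mrps36* (0.0304) and *Mrpl46* (0.0277) were each lost without at least 7 of the 12 libraries taken out in turn, with p-values up to 0.106, 0.115, 0.082 and 0.0767, and that of *Mrpl37* (0.0201) without control female library B (0.054) or mutant female library A (0.0557). For *Mrps14* (0.60 ± 0.18, limma adjusted p = 0.0287) the interaction call was lost without control female library C (0.0767).

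**Figure D4:**
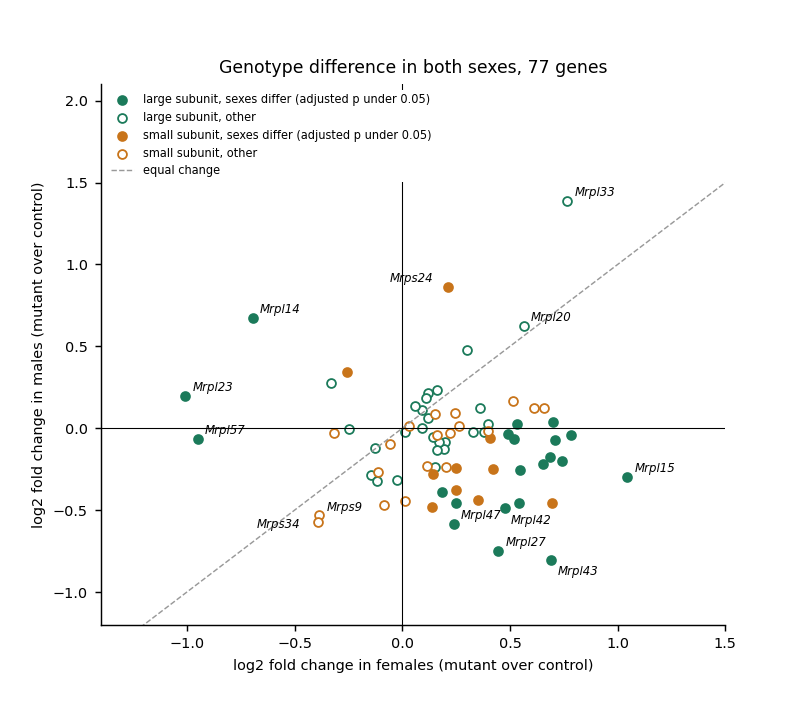
Log2 fold change of the 77 genes in females (x axis) and in males (y axis), mutant over control. Filled points are the 31 genes whose change differed between the sexes, most of them below the dashed line of equal change, and *Mrpl14*, *Mrpl23* and *Mrpl57* are on the left above it.

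The 42 genes that were higher in mutant females had a median male log2 fold change of -0.07, with 13 above and 29 below 0. This was close to all 77 members, whose male median was -0.06, with 26 above and 51 below 0. The male median was -0.16 over all genes tested and 0.02 over genes in the range of the members. The 9 genes that were lower in mutant females had a median male value of -0.01, with 4 above and 5 below 0.

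The fourth comparison set control females against control males, which both lack the mutation. Of the 77 genes 15 were higher and 8 lower in control females by limma, against 9.7% higher and 11.8% lower of 22014 genes. Without control male library B 34 were higher and 7 lower, against 13.5% and 24.3% of all genes. Control male libraries A and C also held reads on 20773 and 20368 genes, whereas the other 10 libraries held reads on 17163 to 17731. *Mrpl15* was lower in control females (-1.06 ± 0.13, limma adjusted p = 6.86e-05), as were *Mrpl24* (-0.68 ± 0.08) and *Mrpl42* (-0.45 ± 0.09). *Mrpl33* (1.31 ± 0.27), *Mrpl55* (1.13 ± 0.26), *Mrpl23* (0.94 ± 0.20), *Mrpl57* (0.80 ± 0.15) and *Mrpl12* (0.67 ± 0.14) were higher, with limma adjusted p-values between 0.00253 and 0.00707. This comparison shares its control female libraries with the female comparison, so a gene whose level stands apart in control females enters both.

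The other genes of mitochondrial gene expression were counted in the same fits, in which 25.4% of all genes were higher and 24.6% lower in mutant females. In females 11 of 16 genes of mitochondrial transcription and RNA processing were higher and 1 lower, with a median log2 fold change of 0.44, led by *Fastkd5* (log2 fold change 1.21 ± 0.10) and the elongation factor *Tefm* (1.02 ± 0.11) and with *Hsd17b10*, a subunit of mitochondrial RNase P, at the bottom (-0.34 ± 0.08). The mitochondrial RNA polymerase gene *Polrmt* gave -0.02 ± 0.09 (limma adjusted p = 0.906), and *Tfam*, which packs and transcribes the mitochondrial genome, rose by 0.42 ± 0.06. Of 25 genes of ribosome assembly and rRNA modification 10 were higher and 4 lower (median 0.19). *Rbfa*, a factor of small subunit maturation, rose most (1.53 ± 0.09), followed by the rRNA methyltransferase *Ftsj2* (1.02 ± 0.13), and *Mtg1* (-0.93 ± 0.09), a GTPase of large subunit assembly, and *Mrm1* (-0.55 ± 0.10) fell most.

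Of 13 translation factors 5 were higher and 1 lower in mutant females (median 0.15), from the recycling factor *Mrrf* (0.82 ± 0.13) and the initiation factor *Mtif3* (0.37 ± 0.12) to the elongation factor *Guf1* (-0.56 ± 0.08). Of 16 mitochondrial aminoacyl-tRNA synthetases tested 6 were higher and 3 lower (median 0.08), from *Rars2* (0.79 ± 0.07) and *Mars2* (0.53 ± 0.11) to *Nars2* (-0.41 ± 0.10) and *Iars2* (-0.55 ± 0.06). The 6 ribosomal proteins with other names gave 2 higher, *Ict1* (0.57 ± 0.10) and *Ptcd3* (0.32 ± 0.06), and 1 lower, *Gadd45gip1* (-0.31 ± 0.08), with a median of -0.01. Of 18 genes of import and protein quality 9 were higher, led by the chaperonin *Hspe1* (0.56 ± 0.07) and *Hspa9* (0.43 ± 0.05), and 4 lower, led by the proteases *Spg7* (-0.61 ± 0.07) and *Lonp1* (-0.47 ± 0.05), with a median of 0.13.

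The nuclear regulators gave 6 higher and 3 lower of 13 (median 0.14). *Esrrb*, which is also a gene of naive pluripotency, rose from a mean of 237 to 981 and *Mycn* from 367 to 1310 in females (2.05 ± 0.07 and 1.83 ± 0.06). *Nrf1* rose by 0.29 ± 0.06, *Gabpa* gave 0.11 ± 0.06 (limma adjusted p = 0.118), and *Ppargc1b* (-0.70 ± 0.13) and *Esrra* (-0.27 ± 0.07) fell. *Gabpb2* rose (0.89 ± 0.06, limma adjusted p = 1.32e-09) and *Gabpb1* fell (-0.17 ± 0.06, limma adjusted p = 0.0326). *Yy1* gave 0.14 ± 0.06 (limma adjusted p = 0.0735), and *Myc* (0.86 ± 0.08) and *Max* (0.54 ± 0.06) rose. In males 6 ribosomal proteins with other names, 13 translation factors, 25 assembly genes, 16 synthetases and 16 transcription and RNA processing genes were tested. So were 13 regulators and 19 genes of import and protein quality. These lists together gave 4 calls: *Esrrb* (2.03 ± 0.39) and *Ptcd1* were higher, and *Chchd1* (-0.52 ± 0.13) and *Iars2* (-0.48 ± 0.12) were lower. Of all 21900 genes tested in males 4.19% were higher and 3.58% lower.

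**Figure D5:**
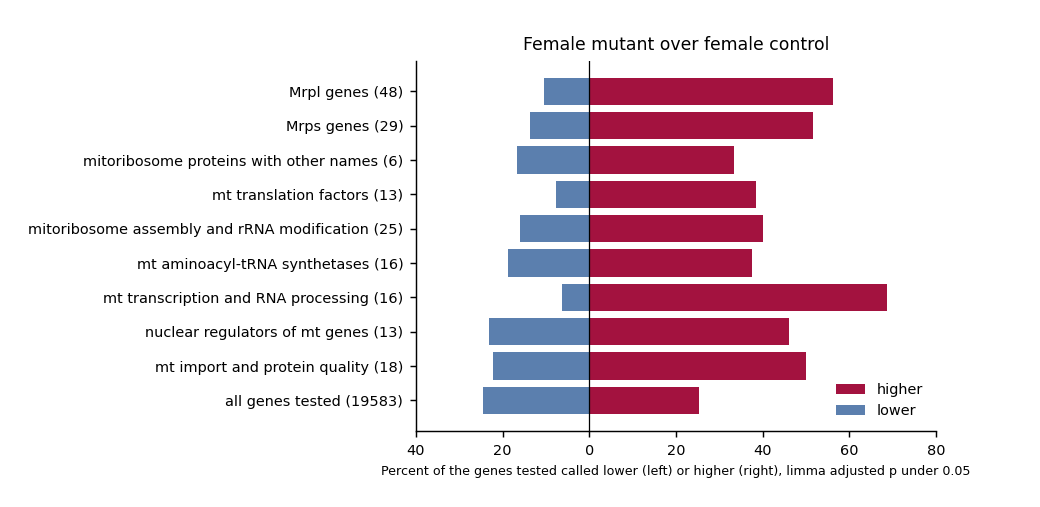
Percent of the genes tested in each list that were higher (right) or lower (left) in mutant than in control females by limma, with the number of genes tested in brackets and all 19583 genes at the bottom. The *Mrpl* and *Mrps* genes and the list of mitochondrial transcription and RNA processing extend furthest to the right.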

How the data were processed

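RNA-Seq was measured in 12 EpiLC libraries, 3 ESC lines for each of 4 genotypes. Per the study's methods and processing notes, the authors depleted rRNA, aligned 50-base single reads to mm9 with TopHat2 2.1.0 (Bowtie2 2.2.6.0), counted unique reads per gene with HTseq and normalised with DESeq. The gene annotation and strand setting of the counting are not given in the sources used here. The 2 deposited tables, 1 per sex, hold the authors' mean normalised counts per genotype (unit signal) and columns of the authors' own comparisons, which were not used.

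Each mean is a sum of 3 whole read numbers over size factors, so the reads of each library were solved for: 99.7% to 99.8% of genes per group gave a single solution, namely all genes with a mean up to 10000. These hold 86.0% to 91.4% of the normalised counts, and totals therefore understate depth. No count model was used. limma 3.58.1 (R 4.3.3) with an intensity trend was fitted to log2(normalised count + 1) of all genes with a read, within each sex or over all 12 libraries (interaction, control sexes), with Benjamini-Hochberg adjustment. Fold changes on this scale understate the change of low genes. An exact two-sided permutation test of 3 against 3 libraries cannot go below 0.10 and was not used for calls. The fit was tested on simulated data. Alternatives were a pseudocount of 0.1, a minimum mean of 10, other scalings, limma voom and leaving out libraries.

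Named genes are the 6 largest rises and falls per sex among called genes, the 6 smallest interaction p-values, the 3 highest and lowest per kilobase in each subunit and a few members of known special role. Other members named were chosen after their values were seen. The members, the lists of other mitochondrial genes and the markers were chosen with earlier results of these data known.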

Additional observations from a re-analysis of the deposited data

Results flagged for a closer look

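The change from control to mutant differed between males and females for 31 of the 77 genes by the interaction term of limma (adjusted p under 0.05). Among the genes named in the report, the male change minus the female change on the log2 scale was -1.495 for *Mrpl43*, -1.342 for *Mrpl15*, -1.197 for *Mrpl27*, -0.9984 for *Mrpl11*, -0.9653 for *Mrpl42*, -0.9464 for *Mrpl51*, -0.8594 for *Mrpl40*, -0.8241 for *Mrpl46*, -0.8229 for *Mrpl47*, -0.7777 for *Mrpl19*, -0.7042 for *Mrpl24* and -0.6577 for *Mrpl37*. In genes of the small subunit it was -0.6733 for *Mrps18b*, -0.6301 for *Mrps33*, -0.423 for *Mrps36*, 0.6501 for *Mrps24* and 0.5997 for *Mrps14*. In the large subunit it was above 0 for *Mrpl14* (1.368), *Mrpl23* (1.202) and *Mrpl57* (0.8838). Sex and the origin of the ESC lines cannot be told apart in these groups.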

How the results depend on the processing

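No paired analysis was possible because the libraries recovered from group means carry no replicate number of their own and could not be tied to the numbered lines. In females 51 members were called, and 41 to 52 under the other scalings, pseudocount, minimum mean and limma voom. In males 8 were called, 4 with limma voom, 0 to 15 without each library in turn and 28 without control library B and mutant library A, which was chosen after seeing the data. Between control females and control males 23 were called, 16 to 41 without each library in turn and 49 without both of those libraries. The interaction calls ranged from 22 to 40 without each library in turn. The female median of *Mrpl* genes was 0.15 (0.1486) with total recovered reads, 0.20 (0.1959) with *Mrps30* and *Mrps18a* counted with them, and 0.207 to 0.2442 without each library. That of *Mrps* genes was 0.132, 0.21 (0.2115) and 0.169 to 0.2128 in the same order. The male median of *Mrpl* genes was -0.1161 to 0.0576 without each library and 0.0193 without both, and that of *Mrps* genes -0.1838 to -0.0258. With *Mrps30* and *Mrps18a* counted with the large subunit, the male medians were -0.0654 in the large and -0.061 in the small subunit. The cause of these shifts was not tested. No call of a named gene changed direction under these alternatives, and the calls of named genes were lost in 20 of 286 fits in females, 38 of 96 in males, 34 of 342 for the interaction and 10 of 216 between control sexes. Members named only in passing, among them *Mrps14*, *Mrps7*, *Mrps17* and *Mrpl28*, are not in these counts.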
